A study of Mus musculus with 6 samples.

Results

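TRIM genes encode tripartite motif proteins, most of them RING-type E3 ubiquitin ligases, and they were followed here in RAW 264.7 cells, a mouse macrophage-like line derived from a virus-induced tumour. The members are all genes that the platform annotation names Trim followed by a number and at most 1 letter from a to d, apart from Trim25, which was not included. That gave 67 genes, of which 62 had a probe set listed with that gene alone, out of 22180 such genes on the array, and a gene with several was read at the probe set with the highest mean over the 6 arrays. The 5 others, Trim5, Trim34b, Trim60, Trim61 and Trim65, shared their probe sets with another gene. Cells had received a non-targeting control GapmeR (Control, 3 arrays) or a GapmeR against Mist (Mist-targeted, 3 arrays), each at 50 nM with a lipid transfection reagent, and RNA was taken at 48 h. A GapmeR is a short antisense oligonucleotide with locked nucleic acid ends through which RNase H cuts the RNA it pairs with, and Mist is known as a macrophage long noncoding RNA. Both groups are 1 cell line and both carried an oligonucleotide, so no untransfected cells enter the comparison, and how many different targeting sequences were used is not stated. Values are log2 expression as deposited, and differences are Mist-targeted minus Control.

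A TRIM protein joins a RING finger, which draws a ubiquitin-loaded conjugating enzyme to a substrate, to B-box zinc fingers and a coiled coil through which the protein pairs with itself. The C-terminal part picks the substrate and sorts the family into classes, of which the B30.2 (PRY-SPRY) class is the largest and holds many antiviral members. In macrophages several TRIM genes are known to be induced by interferon, and their proteins restrict viruses or tune signalling from Toll-like and cytosolic nucleic acid receptors. The Trim30 genes are B30.2 members that lie side by side on chromosome 7, close to Trim6, Trim12a, Trim12c and Trim34a. TRIM30a is known to lower NF-kB signalling downstream of Toll-like receptors by promoting loss of the TAK1 adaptors TAB2 and TAB3.

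The promoters of the Trim30 genes and of Trim21 are shown because 3 of these 5 genes are the TRIM genes that changed, and because the 4 Trim30 genes differ in the motifs found in them. Each runs 5′ to 3′ on the gene's strand, from 250 bases before the annotated start to 50 bases from it on, and comes from RefSeq on build GRCm38.p6. Capitals mark matches on either strand to GAAANNGAAA, the core of the interferon-stimulated response element, to the same core with 1 base between its parts, GAAANGAAA, or to the gamma-activated site TTCNNNGAA. Matches to the first and second motif can overlap. The positions are chr7:104465144-104465443 for Trim30a, whose first listed start is shown, chr7:104507800-104508099 for Trim30d, chr7:104400729-104401028 for Trim30c, chr7:104358597-104358896 for Trim30b and chr7:102565433-102565732 for Trim21, all on the minus strand.
Trim30a: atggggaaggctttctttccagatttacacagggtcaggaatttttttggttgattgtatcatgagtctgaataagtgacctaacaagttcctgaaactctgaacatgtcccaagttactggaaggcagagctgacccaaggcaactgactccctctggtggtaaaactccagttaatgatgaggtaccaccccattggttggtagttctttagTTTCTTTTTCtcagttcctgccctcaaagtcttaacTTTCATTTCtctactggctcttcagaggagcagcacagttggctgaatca
Trim30d: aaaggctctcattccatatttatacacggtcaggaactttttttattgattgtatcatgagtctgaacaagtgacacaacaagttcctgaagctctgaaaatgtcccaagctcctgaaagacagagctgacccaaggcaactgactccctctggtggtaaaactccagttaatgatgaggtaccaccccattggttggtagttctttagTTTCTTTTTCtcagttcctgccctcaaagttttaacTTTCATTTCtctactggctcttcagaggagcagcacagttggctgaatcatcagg
Trim30c: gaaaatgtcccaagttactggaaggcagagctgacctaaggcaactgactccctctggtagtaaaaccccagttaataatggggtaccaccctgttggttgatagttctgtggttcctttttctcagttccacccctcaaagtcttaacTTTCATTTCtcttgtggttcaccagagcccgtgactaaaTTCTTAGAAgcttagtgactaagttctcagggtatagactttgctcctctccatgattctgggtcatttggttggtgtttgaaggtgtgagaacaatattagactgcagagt
Trim30b: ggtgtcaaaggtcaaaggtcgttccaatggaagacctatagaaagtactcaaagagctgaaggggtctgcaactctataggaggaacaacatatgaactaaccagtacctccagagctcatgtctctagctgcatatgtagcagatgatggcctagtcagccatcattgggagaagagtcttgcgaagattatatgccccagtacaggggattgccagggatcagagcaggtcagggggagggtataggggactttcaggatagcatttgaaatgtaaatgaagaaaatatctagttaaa
Trim21: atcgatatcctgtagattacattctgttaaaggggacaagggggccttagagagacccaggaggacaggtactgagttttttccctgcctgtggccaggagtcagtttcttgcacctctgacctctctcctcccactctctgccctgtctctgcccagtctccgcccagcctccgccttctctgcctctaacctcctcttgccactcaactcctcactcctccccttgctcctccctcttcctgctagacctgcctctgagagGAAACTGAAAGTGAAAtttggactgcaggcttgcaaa

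The Trim30a and Trim30d windows were 93.6% identical over 295 aligned bases, and both held TTTCTTTTTC, the core read on the other strand. In Trim30a it lay 27 to 36 bases and in Trim30d 32 to 41 bases upstream of the annotated start shown. At the other listed start of Trim30a, whose window is not shown, the same letters lay 2 to 11 bases downstream. Trim30c aligned with Trim30a over 191 bases at 86.4% identity. At the place of the core it had TTCCTTTTTC, which differs by T3C, counted from the first base of the Trim30a match, and so is no match. Trim30c held the 1-base form, TTTCATTTC, 93 to 101 bases upstream of its annotated start. The windows shown for Trim30a and Trim30d held the same letters, but at the annotated start itself. Trim30c also held a gamma-activated site TTCTTAGAA. The Trim30b window held none of the 3 motifs and aligned with none of the others over 100 bases or more. Trim21 held overlapping cores 13 to 28 bases downstream of the start, GAAACTGAAA and GAAAGTGAAA. A match is a description of letters and not evidence that a factor binds there.

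Checks of the whole series bear on the values that follow. Arrays of a group correlated at 0.988 to 0.991 and arrays of different groups at 0.986 to 0.989, and no array stood apart. The annotation holds no gene named Mist, so its level could not be read here. Of 10 macrophage markers 0 lay below the lowest array median of 4.47, whereas all 5 T and NK cell, all 3 B cell, all 4 neutrophil and 3 of 4 fibroblast markers did. The summed level of the macrophage markers was 97.7 to 98.2 in Control and 98.4 to 99.1 in Mist-targeted arrays, and the groups did not overlap. Of the 10 markers 5 were positive and 5 negative, and only Fcgr1 was called (1.01 ± 0.086, SE, with n = 3 per group and adjusted p = 0.012 by limma). The groups were apart with Mist-targeted higher in 2, Fcgr1 and Adgre1 (0.23 ± 0.089). They were apart with Mist-targeted lower in 2, Ptprc (-0.27 ± 0.084) and Cd14 (-0.28 ± 0.10). Each is 20.0% of the markers, against 9.99% and 9.97% of all genes. Without Fcgr1 the sums of the 9 others were 88.6 to 89.0 and 88.2 to 89.0, and the part of this shift in the TRIM values was not tested.

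Of the 62 TRIM genes 3 rose with the Mist-targeted GapmeR, 0 fell and 59 did not pass an adjusted p of 0.05 (limma over all 41345 probe sets). The 3 were Trim30d, Trim30c and Trim21, and all are B30.2 members on chromosome 7. They are 4.84% of the TRIM genes, where 0.212% of all 22180 genes rose and 0.203% fell. The groups did not overlap, with Mist-targeted higher, in 13 TRIM genes (21.0%, against 9.99% of all genes), and with Mist-targeted lower in 8 (12.9%, against 9.97%). At an unadjusted p under 0.05, 10 TRIM genes were higher (5.24% of all genes were) and 3 lower (5.79% of all genes were). The median difference of the 62 was 0.03, and that of all genes 0.01. The calls rest on every array: without any 1 of the 6, Trim21 (adjusted p = 0.081 to 0.13) and Trim30d (adjusted p = 0.088 to 0.19) were no longer called, and Trim30c was called only without Mist-targeted replicate 2 (adjusted p = 0.0498; 0.14 to 0.18 without each of the others). In bulk RNA a change of level per cell and a change in the share of cells that express a gene cannot be told apart.

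**Figure D1:**
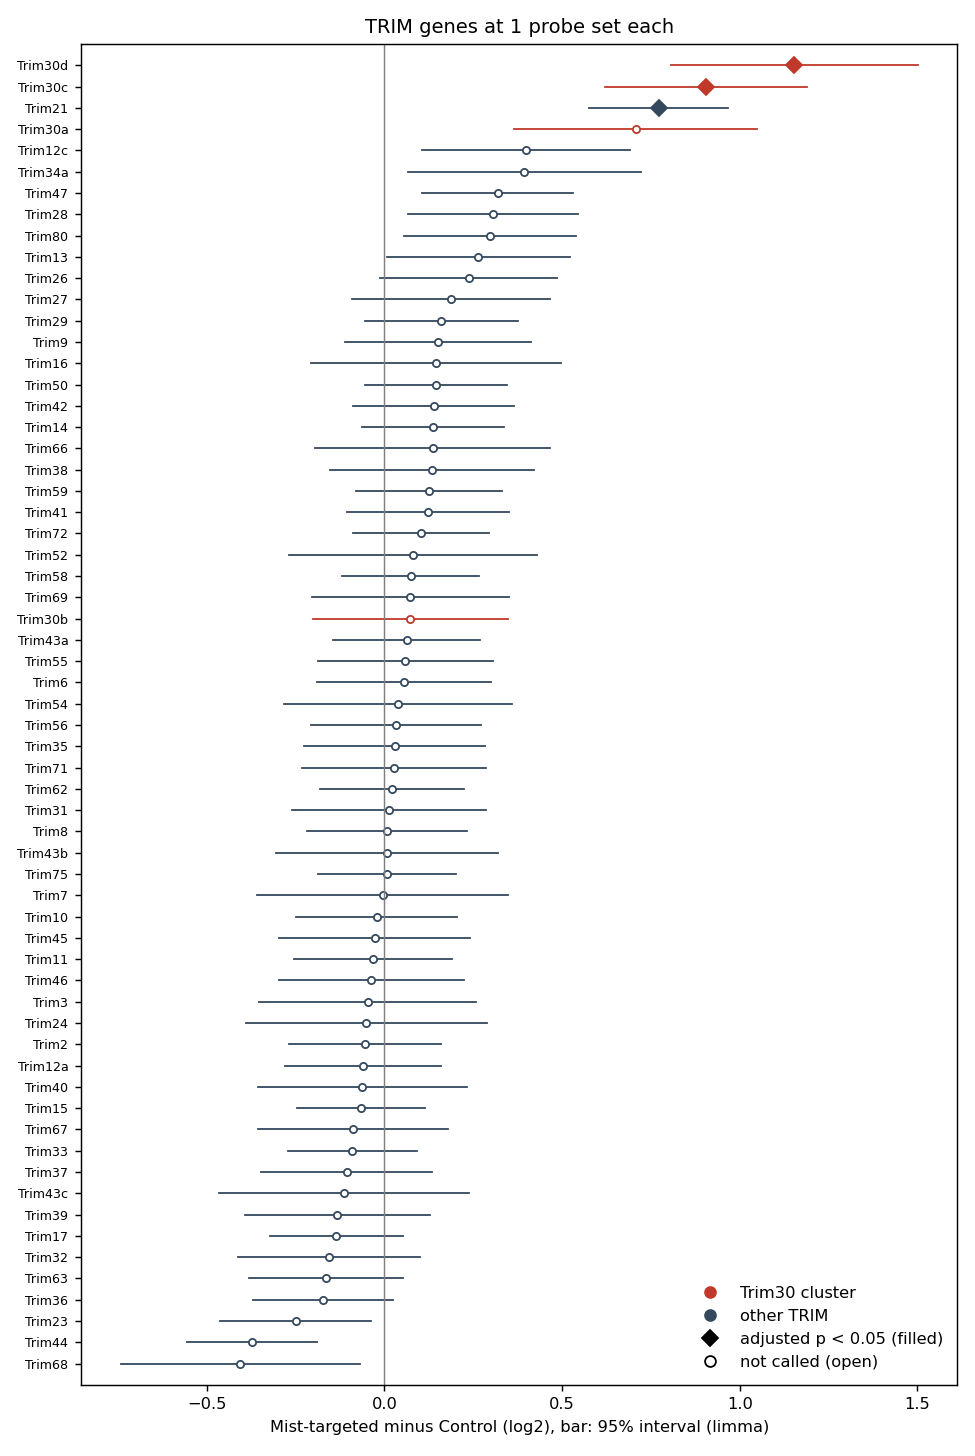
Difference between Mist-targeted and Control arrays on the log2 scale for the 62 TRIM genes with a probe set of their own, with 95% intervals from limma, red for the Trim30 cluster. Trim30d, Trim30c and Trim21 (filled diamonds) passed an adjusted p of 0.05, Trim30a stands next to them uncalled, and 47 of the 58 genes outside the cluster lie within 0.2 of 0.

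Trim30d showed the largest difference of the family. Its values were 3.996, 3.96 and 4.18 on the Control arrays and 4.98, 5.10 and 5.52 on the Mist-targeted arrays. Every Mist-targeted array was above every Control array, by at least 0.80. The gene rose 2.22-fold (probe set 17494408; 1.15 ± 0.15 on the log2 scale, SE, with n = 3 per group and adjusted p = 0.039 by limma). With 1 array left out the difference lay between 0.99 and 1.26.

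Trim30c lay between 4.19 and 4.36 on the Control arrays (4.19, 4.36 and 4.33) and read 5.38, 4.97 and 5.24 on the Mist-targeted arrays. The groups were apart by 0.61 at the nearest pair. Trim30c rose 1.87-fold (probe set 17494386; 0.91 ± 0.12, SE, with n = 3 per group and adjusted p = 0.045 by limma). Leaving out 1 array gave differences of 0.81 to 1.02. The Control means of Trim30c and Trim30d, 4.29 ± 0.092 and 4.05 ± 0.12 (SD, n = 3), lay below the lowest array median, where a value can be mostly background, so the sizes of both differences are uncertain.

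Trim30a, the member with the known role in Toll-like receptor feedback, did not pass the test. It read 6.08, 5.74 and 5.95 on the Control arrays and 6.91, 6.51 and 6.47 on the Mist-targeted arrays. The groups did not overlap, and their nearest values were 0.40 apart. The difference was 0.71 ± 0.15 (95% interval 0.37 to 1.05; limma, adjusted p = 0.13; probe set 17494394). Unlike the other 3 Trim30 genes, it was above the array median in both groups. Mist-targeted replicate 1 stood highest against the Control mean, at 0.99, with replicates 2 and 3 at 0.58 and 0.55.

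Trim30b was low in both groups. Its Control values of 3.76, 3.89 and 4.10 overlapped with the Mist-targeted values of 3.86, 3.98 and 4.13. The difference was 0.07 ± 0.12 (95% interval -0.20 to 0.35; adjusted p = 0.91), and it changed sign to -0.0041 without Control replicate 1. All 6 values lay below the array median, so this probe set gives no reading of how an expressed Trim30b would behave. A pseudogene of the cluster, Trim30e-ps1, which is not a member, differed by -0.07 ± 0.17. The Trim30 genes are close copies, and how far their probes share sequence was not tested.

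Set against the rest of the family, the Trim30 cluster had a median difference of 0.81 over its 4 genes and the other 58 TRIM genes one of 0.03. All 4 Trim30 differences were positive, 3 had groups that did not overlap and 2 rose. Of the 58 others 35 were positive and 23 negative, and 1, Trim21, rose. The groups were apart with Mist-targeted higher in 10 (17.2%, against 9.99% of all genes). With Mist-targeted lower they were apart in 8 (13.8%, against 9.97%). The medians of the cluster against the Control mean were 0.96, 0.63 and 0.75 on Mist-targeted replicates 1, 2 and 3. The same medians of the other TRIM genes were 0.06, 0.02 and 0.01. These are descriptions of the 2 sets, without a test over the members. Of the 58 others 27 had a mean below the array median, with a median difference of 0.06, and the 31 at or above it had one of 0.02.

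**Figure D2:**
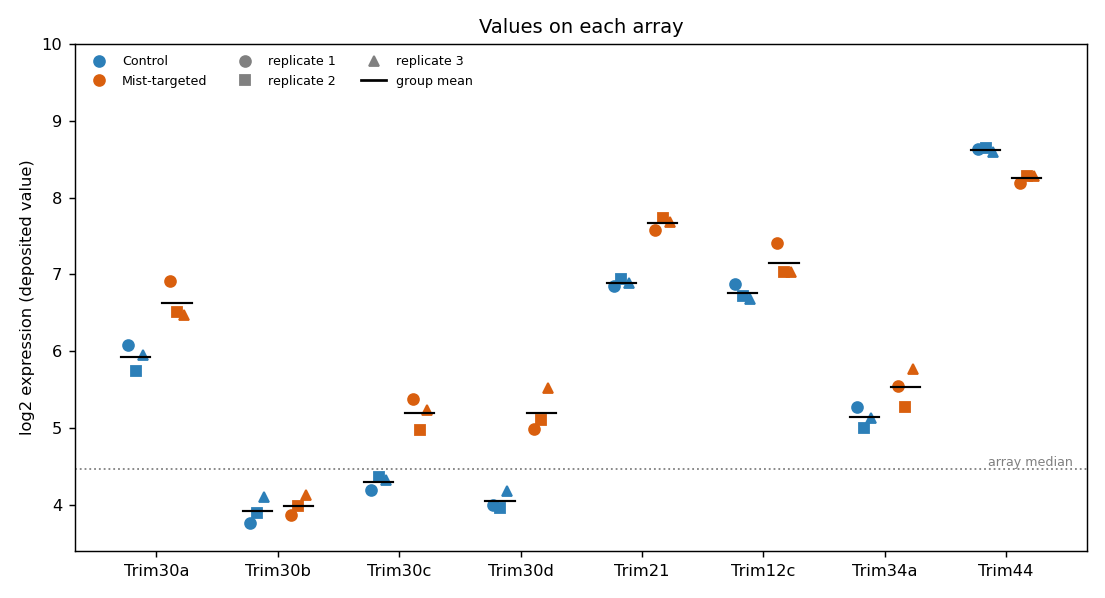
Deposited log2 values on each of the 6 arrays for the 4 Trim30 genes, Trim21, Trim12c, Trim34a and Trim44, with group means as lines and the lowest array median dotted. Mist-targeted arrays are above all Control arrays for Trim30a, Trim30c, Trim30d, Trim21 and Trim12c, overlap with them for Trim30b, touch them for Trim34a and are below them for Trim44.

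Trim21, which encodes a cytosolic receptor for the constant part of antibodies and marks antibody-bound virus with ubiquitin, rose outside the cluster. It read 6.85, 6.94 and 6.89 on the Control arrays and 7.58, 7.74 and 7.68 on the Mist-targeted arrays. The nearest values of the groups were 0.64 apart, and both groups were well above the array median. The rise was 1.71-fold (probe set 17494101; 0.77 ± 0.084, SE, with n = 3 per group and adjusted p = 0.023 by limma). Its difference moved least among the 3 called genes when 1 array was left out, between 0.74 and 0.81.

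Other TRIM genes near the Trim30 cluster did not pass. Trim12c, a relative of the virus restriction factor TRIM5, read 6.87, 6.72 and 6.68 in Control and 7.40, 7.03 and 7.03 in Mist-targeted arrays. Its groups were apart by 0.16, and the difference was 0.40 ± 0.13 (adjusted p = 0.33). Trim34a read 5.28, 5.01 and 5.13 against 5.55, 5.28 and 5.77, so that the lowest Mist-targeted and the highest Control value coincided at 2 decimals (0.39 ± 0.14; adjusted p = 0.40). A second probe set of Trim34a, at a Control mean of 4.13, differed by -0.09 ± 0.16, and thus in sign, while the probe set shared by Trim34a and Trim34b differed by 0.39 ± 0.20 (adjusted p = 0.62). The 2 probe sets shared by Trim12c and Trim5 differed by 0.17 ± 0.13 and 0.27 ± 0.13. Trim6 (0.06 ± 0.10) and Trim12a (-0.06 ± 0.094) were below the array median, with groups that overlapped.

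Along chromosome 7 the changed genes stood among many that were near background. From 6 genes before Trim21 to 6 genes after Trim30e-ps1, in the RefSeq order of GRCm38.p6, 111 genes had a probe set of their own, and 10 of them are TRIM genes. The 10 had a median difference of 0.40, with 3 called and 6 apart with Mist-targeted higher. Of the 101 that are no TRIM genes, most of them olfactory receptor genes, 0 were called (limma, adjusted p under 0.05; 2 at an unadjusted p under 0.05), 2 were apart with Mist-targeted higher and 4 with Mist-targeted lower, and the median was 0.00085. Over all genes 0.415% were called and 11.0% had an unadjusted p under 0.05 (limma), so 0 calls among 101 genes is near the share over all genes. Of all genes 9.99% were apart with Mist-targeted higher and 9.97% with Mist-targeted lower. As 91 of the 101 lay below the array median, they show little of how an expressed neighbour would read. Trim68, which lies between Trim21 and the cluster, went the other way: 5.64, 6.09 and 5.88 in Control and 5.26, 5.50 and 5.63 in Mist-targeted arrays (-0.41 ± 0.14; adjusted p = 0.40). Further along, Trim3 differed by -0.05 ± 0.13 (0.08 without Control replicate 1) and Trim66 by 0.14 ± 0.14.

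**Figure D3:**
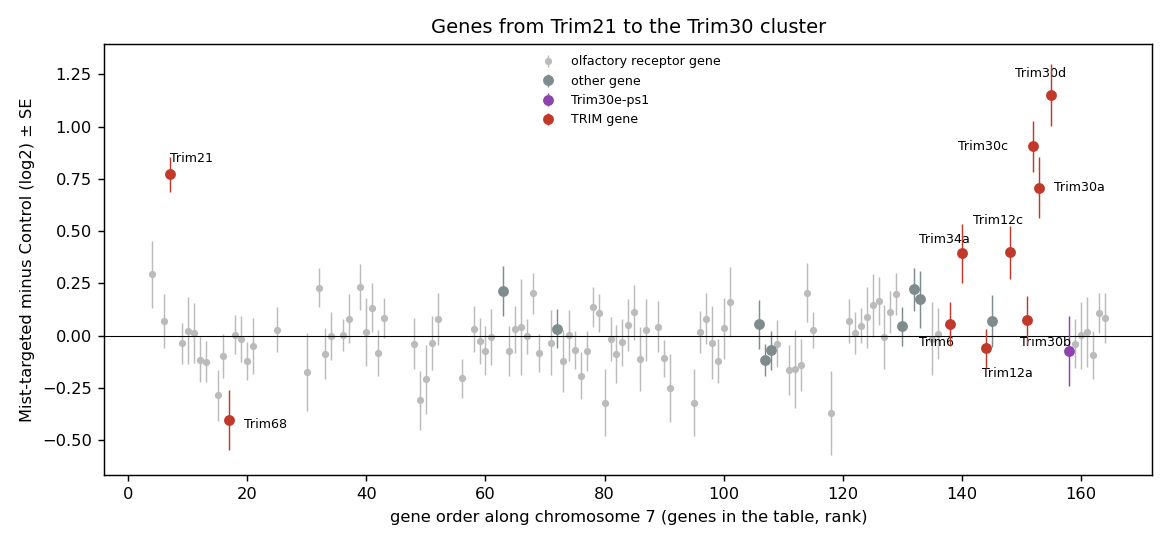
Log2 difference ± SE of the 111 genes with a probe set of their own, from the genes before Trim21 to those after the Trim30 cluster, by their rank in gene order on chromosome 7. Trim21 on the left and Trim30a, Trim30c and Trim30d on the right stand above 0.70, Trim68 lies at -0.41, and the 101 other genes lie between -0.37 and 0.29.

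The core GAAANNGAAA was found in promoters of 9 of the 52 TRIM genes that the promoter table lists (17.3%), and in 3.99% of all 27025 genes there, or 3.44% of the 32851 promoters of 300 bases. The 8 of the 9 with a probe set of their own had a median difference of 0.40; 6 of them were apart with Mist-targeted higher, and 2, Trim30d and Trim21, rose. The remaining 2 were Trim2 and Trim12a, with groups that overlapped. Of the 40 measured TRIM genes without the core, 5 were apart with Mist-targeted higher and 1, Trim30c, rose, and the median was 0.03. Among all measured genes 657 held the core, with a median difference of 0.0049 and 13.7% apart with Mist-targeted higher, against 9.99% of all genes. The 1-base form was found in 9 of the 52 TRIM genes too (17.3%, against 3.70% of all genes), 8 of them measured with a median of 0.40. The gamma-activated site was found in 6 of the 52 (11.5%, against 9.55% of all genes), with a median of -0.0070. A pair of other forms was searched too and is not marked in the sequences. GAAANTGAAA, a narrower form of the core, was found in 3 of the 52 (5.77%, against 0.932% of all genes), with a median of 0.39. GAANNGAAA, which also matches wherever the 1-base form does, was found in 12 of the 52 (23.1%, against 8.68% of all genes), 10 of them measured with a median of 0.20. All of these motifs were chosen after the values were seen. Of the genes with the core, Trim30a, Trim30d, Trim12a, Trim12c and Trim34a lie close together on chromosome 7. The Trim30a and Trim30d windows are 93.6% identical, so these genes are not separate observations. The shares and medians are descriptions without a test.

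The domain classes did not overlap, and genes with a COS box or without a RING finger were placed by that feature. Some of these may also hold a B30.2 domain, so the classes do not separate genes with that domain from those without it. The differences of genes placed outside the B30.2 class lay between -0.37 (Trim44) and 0.30 (Trim28), and none passed in the reported setting. In the other genes placed in the B30.2 class, 28 of 32 measured, the median was 0.06, with 19 positive and 9 negative. Besides Trim21, Trim12c and Trim34a, Trim47 was apart with Mist-targeted higher, at 4.76, 4.97 and 4.83 in Control and 5.21, 5.10 and 5.20 in Mist-targeted arrays (0.32 ± 0.091; adjusted p = 0.27). The probe set that Trim47 shares with Trim65 differed by 0.23 ± 0.095. Trim80 was apart in the same direction (0.30 ± 0.10; adjusted p = 0.39) at values below the array median, and the probe set it shares with a microRNA gene differed by -0.11 ± 0.100. Trim17 was apart with Mist-targeted lower (-0.13 ± 0.080; adjusted p = 0.67), also below the median.

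Among the nuclear members with a PHD finger and a bromodomain, Trim28 encodes the KAP1 corepressor that silences retroelements through zinc finger proteins. Its values were 9.08, 9.10 and 9.27 in Control and 9.33, 9.43 and 9.59 in Mist-targeted arrays. The groups were apart by 0.07, and the difference of 0.30 ± 0.10 did not pass (95% interval 0.06 to 0.54; adjusted p = 0.37). Trim33, which encodes a regulator of SMAD signalling, read 8.93, 8.88 and 8.88 against 8.77, 8.80 and 8.85 (-0.09 ± 0.078; adjusted p = 0.80). Over the 4 genes of the class the median was 0.04.

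Of the TRIM genes with lower Mist-targeted values, the 1 with the smallest p has no RING finger. Trim44, whose protein has a zinc finger of the deubiquitinase type in place of the RING, read 8.64, 8.64 and 8.60 in Control and 8.20, 8.28 and 8.28 in Mist-targeted arrays. All Mist-targeted arrays were lower, by at least 0.31, and the values within each group lay close together. The difference was -0.37 ± 0.078 (95% interval -0.56 to -0.19; adjusted p = 0.14; probe set 17388716), or 1.29-fold lower. Of the 4 genes of this class 3 had positive differences, and the class median was 0.14.

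The remaining classes gave the following. Of the 3 genes with a filamin, MATH or ARF domain all were negative (median -0.11). Trim23, which carries an ARF GTPase domain and is known to activate the kinase TBK1, read 7.34, 7.35 and 7.18 in Control and 7.07, 6.95 and 7.09 in Mist-targeted arrays, with no overlap (-0.25 ± 0.091; adjusted p = 0.41). Trim37, a gene of centrosome and centriole control, differed by -0.11 ± 0.10 at a mean of 9.25, with groups that overlapped. The 2 members anchored in membranes were positive, with Trim13, a ligase of the endoplasmic reticulum, at 0.26 ± 0.11 (adjusted p = 0.50).

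Members with a COS box, a motif that holds a protein to microtubules, had a median of 0.00018 over 8 genes, and Trim36 (-0.17 ± 0.084; adjusted p = 0.58) and the muscle ligase gene Trim63 (-0.16 ± 0.093; adjusted p = 0.66) were apart with Mist-targeted lower. The 4 NHL repeat genes had a median of -0.05, with Trim32 at -0.16 ± 0.11 (adjusted p = 0.74). Of the 5 measured genes with none of these domains, Trim52 had the smallest p (0.08 ± 0.15; adjusted p = 0.93). Trim8, a regulator of cytokine signalling, read 8.65, 8.68 and 8.69 against 8.65, 8.56 and 8.83 (0.01 ± 0.096; 95% interval -0.22 to 0.23). The lowest values of the family were those of Trim6, Trim67 (-0.09 ± 0.12) and Trim75 (0.01 ± 0.083), at means of 3.65, 3.66 and 3.69. Values of different probe sets also depend on the probes, so the members were not ranked by abundance. Of 12 further probe sets of TRIM genes, own or shared, 0 were called (limma; 1 at an unadjusted p under 0.05), with differences from -0.19 to 0.39. In all, 28 of the 62 had a mean below the array median (45.2%, against 47.6% of all genes), and a change there is hard to see.

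TRIM ligases work with conjugating enzymes and signalling partners, which were read in the same fit. Of 15 listed genes of ubiquitin conjugation 11 had a probe set of their own, which were the activating enzyme gene Uba6 and 10 genes of conjugating enzymes or their variants. Of the 11, 0 passed (limma; 1 at an unadjusted p under 0.05, where 11.0% of all genes were), and the median was 0.12. Ube2l6, the conjugating enzyme of the ubiquitin-like modifier ISG15, differed by 0.38 ± 0.089 (adjusted p = 0.17) and Ube2v2 by 0.26 ± 0.12 (adjusted p = 0.57). Of 17 genes of TAK1 and TRAF signalling, in which the TRIM30a substrates TAB2 and TAB3 act, 0 passed (limma; 3 at an unadjusted p under 0.05), and the median was -0.06. The ubiquitin-editing enzyme gene Tnfaip3 differed by -0.62 ± 0.17 (adjusted p = 0.24) and Traf2 by 0.23 ± 0.082 (adjusted p = 0.39).

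Genes of nucleic acid sensing and of the interferon response, which share Ifih1 and Irf7, lay mostly above 0. Of 20 sensing genes 1, the sensor gene Zbp1, rose (1.39 ± 0.094; adjusted p = 0.0053), 15 were positive, and the median was 0.32. Of 34 interferon-stimulated genes 6 rose (17.6%, against 0.212% of all genes) and 0 fell (0.203% of all genes did). Of the 34, 33 were positive, with a median of 0.41. The largest rises were those of Phf11b (0.95 ± 0.12), Mx1 (0.79 ± 0.088) and Epsti1 (0.72 ± 0.078), at adjusted p values of 0.039, 0.025 and 0.023 (limma). With 1 array left out, 5 of the 6 were called in 0 of 6 fits and Phf11b in 1, whereas Zbp1 was called in 4 (limma, adjusted p = 0.027 to 0.053). With no moderation none of the 6 was called (adjusted p = 0.072 to 0.18), nor was Zbp1 (adjusted p = 0.090). In 30 of the 34 the Mist-targeted arrays were above all Control arrays, where 9.99% of all genes were. Of all genes with a mean at or above the array median, as 33 of the 34 had, 14.5% were. The list was chosen with earlier results of these data known. The 34 genes ranged widely, from -0.0020 to 0.95. Trim30a, Trim30c, Trim30d and Trim21 differed by 0.71 to 1.15, and Trim30b by 0.07. Whether the Trim30 genes or Trim21 behaved like this list was not tested. The median of the 58 TRIM genes outside the cluster was 0.03.

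**Figure D4:**
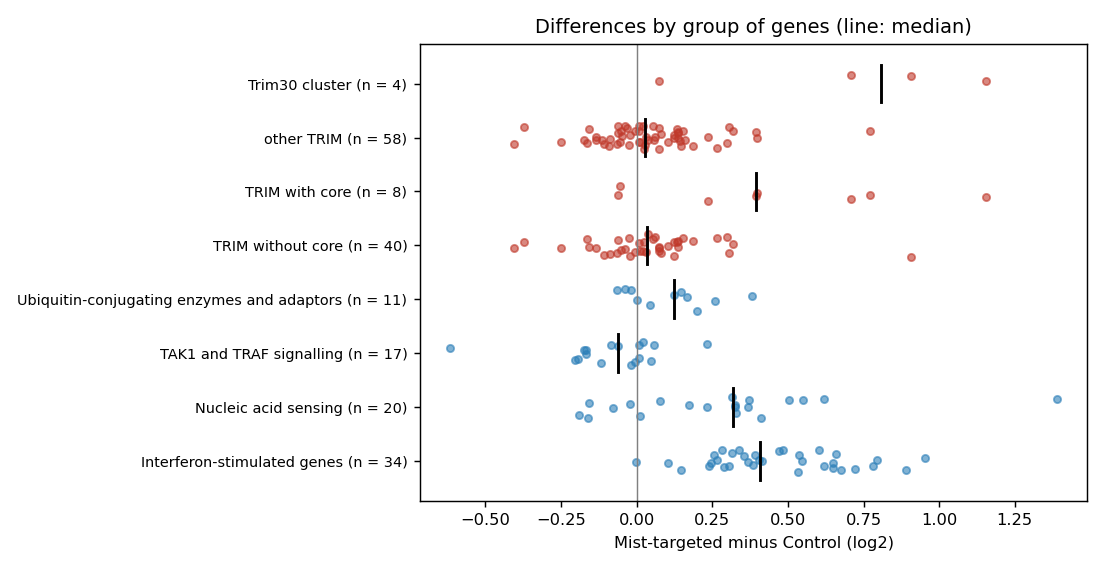
Log2 difference of each gene (points) and median (line) for the Trim30 cluster, the other TRIM genes, TRIM genes with and without the core GAAANNGAAA in their promoter, and 4 lists of partner genes. The medians are 0.81, 0.03, 0.40, 0.03, 0.12, -0.06, 0.32 and 0.41 from top to bottom. The core was chosen as a motif after the values were seen.

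The calls depended on the setting of the test. Trim21, Trim30c and Trim30d were called under each of 6 alternatives: a variance trend with robust moderation, weights per array, arrays centred on their median, quantile normalization, listed probe sets alone, and averaged probe sets per gene. They were called too when the dimmest 40% of probe sets were left out, but Trim30d passed that filter, whose limit is a mean of 4.24, only through its Mist-targeted values, its Control mean being 4.05. None of the 3 was called with no moderation (adjusted p = 0.11, 0.19 and 0.21) or with the replicate number as a block. When only probe sets with a listed gene were tested, Trim30a (adjusted p = 0.012) and Trim44 (adjusted p = 0.035) passed as well, Trim30a as a rise and Trim44 as a fall, where 2.9% of all genes passed in either direction.

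**Figure D5:**
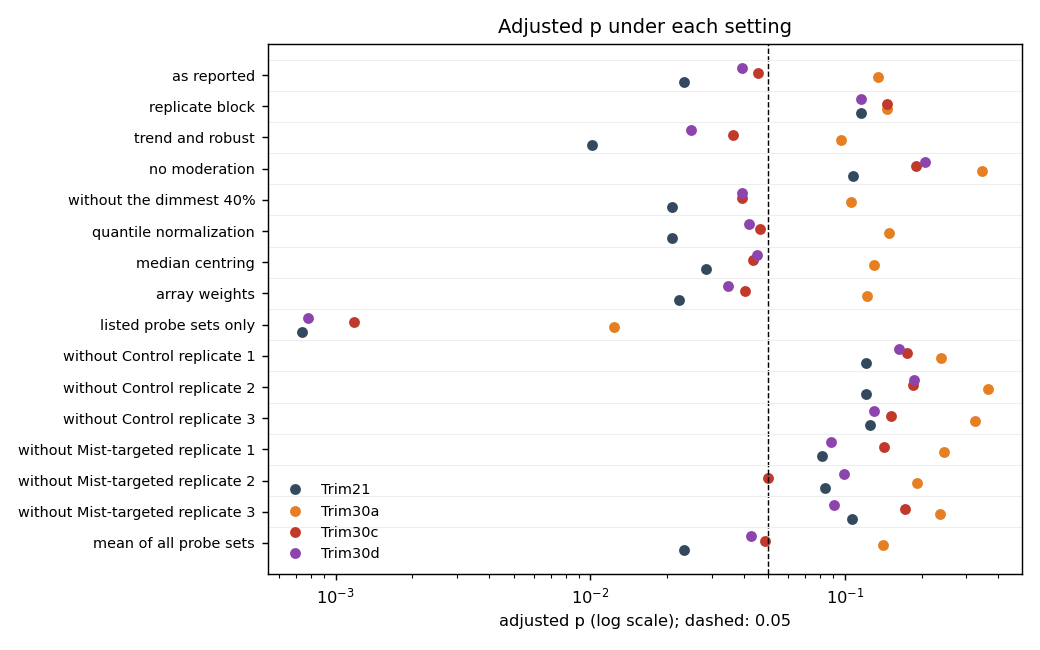
Adjusted p on a log scale for Trim21, Trim30a, Trim30c and Trim30d under the reported setting and 15 alternatives, with 0.05 dashed. Trim21 and Trim30d lie right of the line whenever 1 array is left out, and Trim30a lies left of it only when listed probe sets alone were tested.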

How the data were processed

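RNA of 3 Control and 3 Mist-targeted samples was read on Affymetrix arrays from 5 µg of total RNA each, per the labels' protocols. The authors deposited log2 values for each array (2.50 to 14.1). The submitters' processing notes name RMA and Partek, without versions or settings. RMA normalizes all arrays to the same distribution, which would shrink a shift shared by most genes. The labels do not call replicates separate cultures: p values then measure only the spread between these samples, perhaps a technical one, and the number of arrays limits precision.

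Of 41345 probe sets 23521 were listed with 1 gene, 1814 with several and 16010 with none. All 62 TRIM gene IDs were matched in the RefSeq table (GRCm38.p6) and 0 symbols differed. Differences, SE and 95% intervals come from a two-sided moderated test of group alone in limma 3.58.1 (lmFit, eBayes; R 4.3.3; prior degrees of freedom 3.48), with Benjamini-Hochberg adjustment over all probe sets and a call at 0.05. The code was tested on simulated data. With 3 arrays a group, the smallest exact permutation p would be 0.1. Motifs were searched and promoters aligned with Python 3.11.15 and Biopython 1.88 (global, free end gaps, at least 100 aligned bases).

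The members, the partner and marker lists, the domain classes and the rule for named genes were chosen with earlier results of these data known, and all 5 motifs, the least aligned length and the marker sum without Fcgr1 after the values were seen. Named are the Trim30 genes, called members, up to 6 others apart in each direction by size, the 5 highest and 3 lowest in value, the smallest p of each class, the chromosome 7 genes, and per partner list up to 3 called genes or the 2 with the smallest p. Trim2 and Trim30e-ps1 were named after their values were seen, as were the markers Fcgr1, Adgre1, Ptprc and Cd14. Alternatives were the replicate block, other variance models, filters, normalizations, array weights, listed probe sets only, the mean of all probe sets, and leaving out each array. Background correction and a slide block could not be varied from these values.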

Additional observations from a re-analysis of the deposited data

How the results depend on the processing

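The count of TRIM genes called, 3 as reported, was 0 with the replicate block, 0 with no moderation, 5 with listed probe sets only, and 0 to 1 with 1 array left out. The count of partner genes called, 7 as reported, was 0 with the replicate block, 0 with no moderation, 16 with trend and robust, 11 without the dimmest 40%, 23 with listed probe sets only, and 0 to 3 with 1 array left out. The calls over all genes moved too, from 92 as reported to 0 with the replicate block and 0 with no moderation. They were 241 with trend and robust, 140 without the dimmest 40%, 643 with listed probe sets only, and 1 to 34 with 1 array left out. With no moderation 13 TRIM genes had an unadjusted p under 0.05 (21.0%, against 13.2% of all genes). With the replicate block the adjusted p (limma) was 0.12 for Trim21, 0.15 for Trim30c and 0.12 for Trim30d, and 0.089 to 0.14 for the partner genes called without it. The median difference of the Trim30 cluster lay between 0.69 and 0.91 over all 15 alternatives, and that of the other TRIM genes lay between 0.017 and 0.062 with 1 array left out. The 0.91 is a median of 3 Trim30 genes, as Trim30b was dropped with the dimmest 40%. With all 4 genes the highest was 0.89. The labels state no pairing, so the replicate numbers were not taken to pair samples. Same-numbered samples had correlations of their deviations of 0.20, 0.096 and 0.033 for replicates 1, 2 and 3. These cannot settle whether such samples were handled together. The replicate block left 0 of all genes called, against 92 without it. Of 530 values of single named genes under the alternatives 476 kept their side of the threshold, 50 lost a call and 4 gained one, and 0 called values changed sign; 9 uncalled values did. The cause of these shifts was not tested, other than that fewer samples or fewer probe sets were tested in some. Probe sets near background limit what can be seen for 28 of the 62 TRIM genes.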
